A study of Drosophila melanogaster with 20 samples.

Results

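RNA levels in Drosophila SL2 cells were compared between cultures given double-stranded RNA (dsRNA) against SPS1 and untreated cultures at day 5. The samples were chosen by their titles, which gave 2 knockdown and 2 untreated arrays of the 20 in the study; the other arrays were of days 1 and 3. All samples are the same wild-type cell line, derived from embryos and resembling blood cells. Knockdown cells took up dsRNA from the medium, and the untreated cells of each day had no dsRNA of any sequence, so loss of SPS1 and exposure to dsRNA cannot be told apart. The source field of the 2 knockdown samples of day 5 names no treatment with dsRNA, in conflict with their titles and descriptions, which were followed. Levels are log2 values from RMA, a method that corrects, normalizes and summarizes the probes of Affymetrix arrays, and 1 unit is a 2-fold difference. The labels call the samples biological replicates without naming separate cultures, so p-values measure only how far these samples differ among themselves, possibly for technical reasons.

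SPS1, also called SelD, is one of the fly relatives of selenophosphate synthetase. The other, Sps2, makes the selenium donor for selenoproteins and is itself a selenoprotein, whereas SPS1 lacks that activity and its loss is known in flies for effects on redox balance, vitamin B6 and defence genes. Flies fight bacteria through the Imd pathway, in which peptidoglycan receptors activate the NF-kappaB factor Relish, which then switches on genes for antimicrobial peptides. SL2 cells retain that pathway and the phagocytosis of plasmatocytes, the macrophages of the fly. No probe set on the array carried the name Sps1, so the depletion of the targeted RNA was not measured by name.

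Of 18769 probe sets tested, 523 passed at an adjusted p under 0.05 at day 5 (2.79%), 224 higher in the knockdown (1.19%) and 299 lower (1.59%). With the replicate number as a block 2293 passed (12.2%), 952 higher (5.07%) and 1341 lower (7.14%), and all 523 were among them. From the 4 samples of day 5 alone 81 passed (0.432%), 56 higher (0.298%) and 25 lower (0.133%). The same 4 samples with the block, a fit added after the data were seen, gave 1620 (8.63%), 708 higher (3.77%) and 912 lower (4.86%). The 523 covered 449 genes, 192 higher and 257 lower. At least 4-fold changes were seen in 26 of the higher and 27 of the lower probe sets. Both knockdown values lay beyond both untreated values in all 523, an order found in 17.8% of all probe sets upward and 17.5% downward. Both also lay outside the range of all 9 untreated samples of the 3 days for 190 of the higher and 247 of the lower ones, against 7.84% of all probe sets. Passing rested on the same day 5 values, so neither comparison with all probe sets is separate support. The probe sets that rose had a median level of 7.06 in untreated cells, and those that fell one of 8.71.

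**Figure D1:**
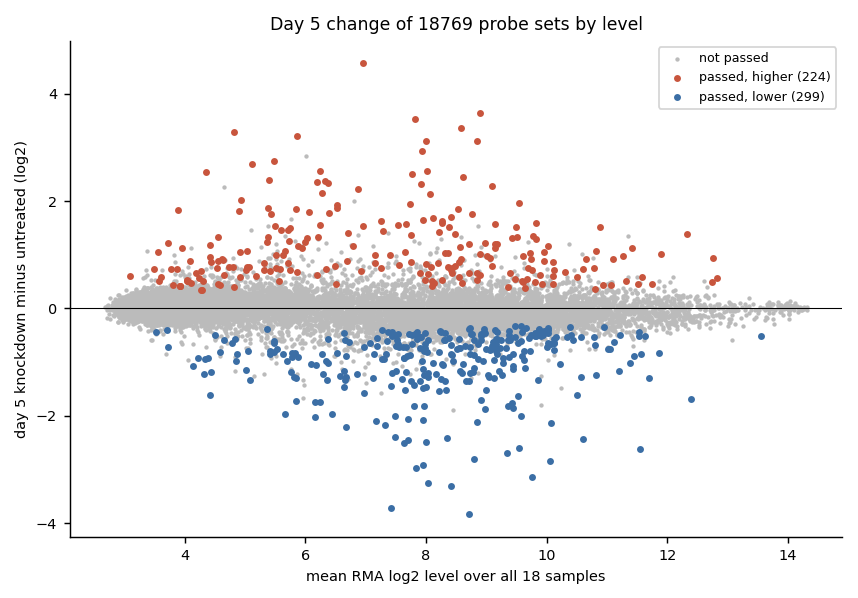
Day 5 change (knockdown mean minus untreated mean, log2, 2 samples each) against the mean RMA log2 level over all 18 samples, 1 point per probe set. Red and blue points mark the 224 higher and 299 lower probe sets that passed, and grey points the others; the largest rise, at 4.57, is Mtk and the largest fall, at -3.83, is CG32985.

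The 2 knockdown samples differed from each other in the size of the falls and of the largest rises. Of the 299 probe sets that fell, 264 fell further in replicate 1 than in replicate 2, with median changes of -0.95 and -0.68 against the untreated sample of the same number. The 224 that rose had a median change of 0.94 in both. For the falls the median SD between the 2 samples was 0.22 in the knockdown and 0.08 in untreated cells (n = 2 each). Knockdown replicate 1 also stood apart as an array: the 4 largest of the 190 root mean square differences between arrays, 0.408 to 0.442 log2 units, all involved it, its median was 4.69 against 4.53 to 4.58 in the other 3 arrays of day 5, and its upper quartile, 7.82, was the lowest of the 4. The part of this in the falls was not tested. Without that sample 273 probe sets passed, 159 higher and 114 lower, and without knockdown replicate 2 there were 777, 278 higher and 499 lower. Among brightly expressed probe sets, those with a mean above 8, the median change was -0.08, and with each array's median subtracted it was -0.15 and 153 of 478 passing probe sets were higher. Control probes for 18S ribosomal RNA differed between samples of 1 group, with levels at the 5′ end of 10.05 and 6.77 in untreated and 8.10 and 6.34 in knockdown cells. The actin control was brighter at its 3′ than at its 5′ end in each of the 4 samples, by 0.12 to 0.37.

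**Figure D2:**
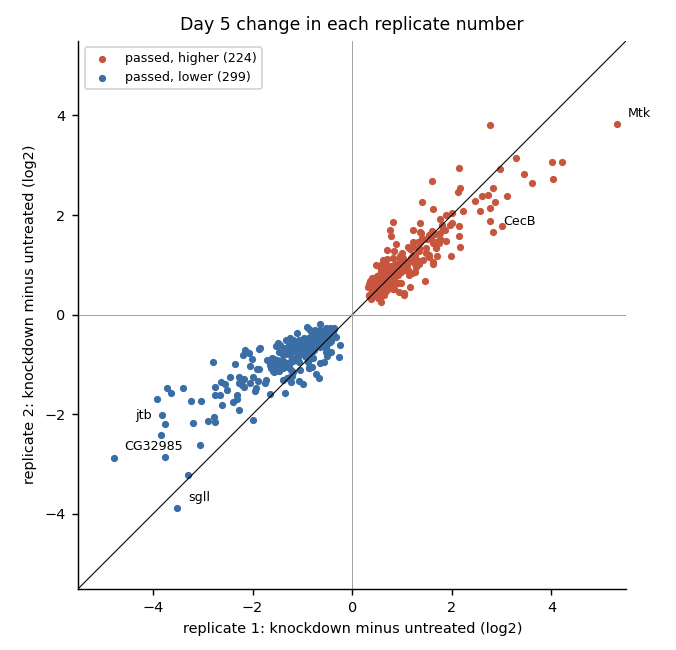
Change at day 5 in replicate 1 (horizontal) and replicate 2 (vertical), each as knockdown minus the untreated sample of the same number, in log2 units, for the 523 probe sets that passed. The diagonal marks equal change; among the blue points, the falls, 264 of 299 lie above it, with jtb at -3.93 and -1.70.

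The levels of cell type markers matched the blood-cell label in part. Of 12 plasmatocyte markers, 4 had a mean above 6 in untreated cells: Pvr, a growth factor receptor, srp and ush, transcription factors of blood cells, and the receptor crq. He and Sr-CI, 2 other plasmatocyte markers, had group means of 3.64 to 3.76, near the array floor. None of the measured muscle (4) or fat body (4) markers reached 6 in either group, and 1 marker did so for each of neurons (elav), crystal cells (PPO2), lamellocytes (PPO3) and germline (fs(1)Yb). The summed level of the plasmatocyte markers was 12.73 and 12.89 in untreated and 12.61 and 13.00 in knockdown cells, a sum set mostly by the brightest marker, Pvr (12.15 and 11.96 in the group means). The number of these markers with a mean above 6 was 4 in untreated and 7 in knockdown cells, with Hml, Pxn and eater added. In such bulk samples fewer cells of a type and less RNA per cell cannot be told apart.

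The largest rise at day 5 was in Mtk, the gene of the antifungal and antibacterial peptide metchnikowin. Its level was 5.04 and 6.25 in the untreated samples and 10.35 and 10.08 in the knockdown samples. That is a rise of 4.57 (23.8-fold, SE 0.68, adjusted p = 0.00073), and the untreated samples differed from each other far more than the knockdown samples. The gene edin, whose small secreted product acts in the response to infection, was at 7.80 and 8.03 in the untreated samples and 12.02 and 11.09 in the knockdown samples. AttD, an attacin, was at 7.47 and 7.87 in the untreated samples and 11.50 and 10.59 in the knockdown samples, and DptB, a diptericin, at 8.12 and 8.37 in the untreated samples and 11.56 and 11.20 in the knockdown samples. In edin, AttD, DptB and CecB knockdown replicate 1 was the higher of the 2 knockdown samples, and every knockdown value exceeded every untreated one. The cecropin gene CecB showed the widest spread of these, at 6.44 and 6.34 in the untreated samples and 9.26 and 7.99 in the knockdown samples. Of 14 antimicrobial peptide genes measured, these 5 rose and 0 fell, with changes of 2.23 to 4.57 and adjusted p from 2e-06 to 0.00073. Over all 11982 named genes, each by its brightest probe set, 1.59% rose and 2.11% fell, with a median change of 0.00; the median of the list was 0.20. In either direction 3.7% of the named genes passed, and with the block 6.13% rose and 9.51% fell. The same shares are the base for each list count below. The drosomycin gene Drs was at 1.14 (SE 0.48, adjusted p = 0.32; 0.0019 with the replicate block), the defensin gene Def at 0.25 (adjusted p = 0.3), and the other 7 members, the drosomycin-like genes and the lysozyme LysX, lay between -0.09 and 0.16. Each of these calls held with any 1 day 5 sample left out.

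Among the genes of the Imd pathway, 5 of 23 measured rose and 0 fell (median 0.13, with 8 higher and 1 lower with the replicate block), against 1.59% and 2.11% of all named genes. At the level of recognition, PGRP-LF, a membrane protein that blocks the peptidoglycan receptor, was at 5.51 and 5.63 in the untreated samples and 7.52 and 7.48 in the knockdown samples, a rise of 1.93 (3.81-fold, SE 0.33, adjusted p = 0.0025). PGRP-LB, an amidase that degrades peptidoglycan, rose by 0.86 and PGRP-LA by 0.57, from untreated means of 4.25 and 4.15, which lie under the medians of the arrays and close to the floor. Without knockdown replicate 2 these rises were 0.56 and 0.37. Inside the cell, pirk, an inhibitor that binds the receptors, was at 5.01 and 5.24 in the untreated samples and 7.16 and 6.82 in the knockdown samples and rose by 1.86 (3.63-fold, SE 0.29, adjusted p = 0.001). Rel, the gene of the NF-kappaB factor Relish, had far higher levels, 9.96 and 9.96 in the untreated samples and 10.79 and 10.48 in the knockdown samples, and a smaller rise of 0.68 (adjusted p = 0.011). Of the 5, PGRP-LF, PGRP-LB and pirk are known to restrain the pathway. Over the 9 untreated samples of all days, PGRP-LF ranged from 5.51 to 7.36 and pirk from 5.01 to 6.80. The untreated levels of day 5 were thus at the low end of that range, and the knockdown levels just above its top. In the Toll pathway, the other antimicrobial route, 1 of 19 rose (5 higher and 1 lower with the replicate block): the receptor gene Tl, by 0.79 (adjusted p = 0.0015). The ligand of the tumour necrosis factor family, egr, rose by 1.29 (adjusted p = 7.7e-06), as 1 of 15 genes of the JNK pathway (2 higher and 1 lower with the replicate block). The calls of PGRP-LB (0.81), Rel (0.68) and PGRP-LA (0.53) were lost without untreated replicate 1 (adjusted p from 0.083 to 0.26). With untreated replicate 2 left out, PGRP-LB (0.91), Rel (0.67) and PGRP-LA (0.60) no longer passed (adjusted p from 0.051 to 0.17). Removing knockdown replicate 1 ended the call of Rel (0.52) (adjusted p = 0.18). When knockdown replicate 2 was dropped, PGRP-LB (0.56) and PGRP-LA (0.37) did not pass (adjusted p from 0.085 to 0.22).

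**Figure D3:**
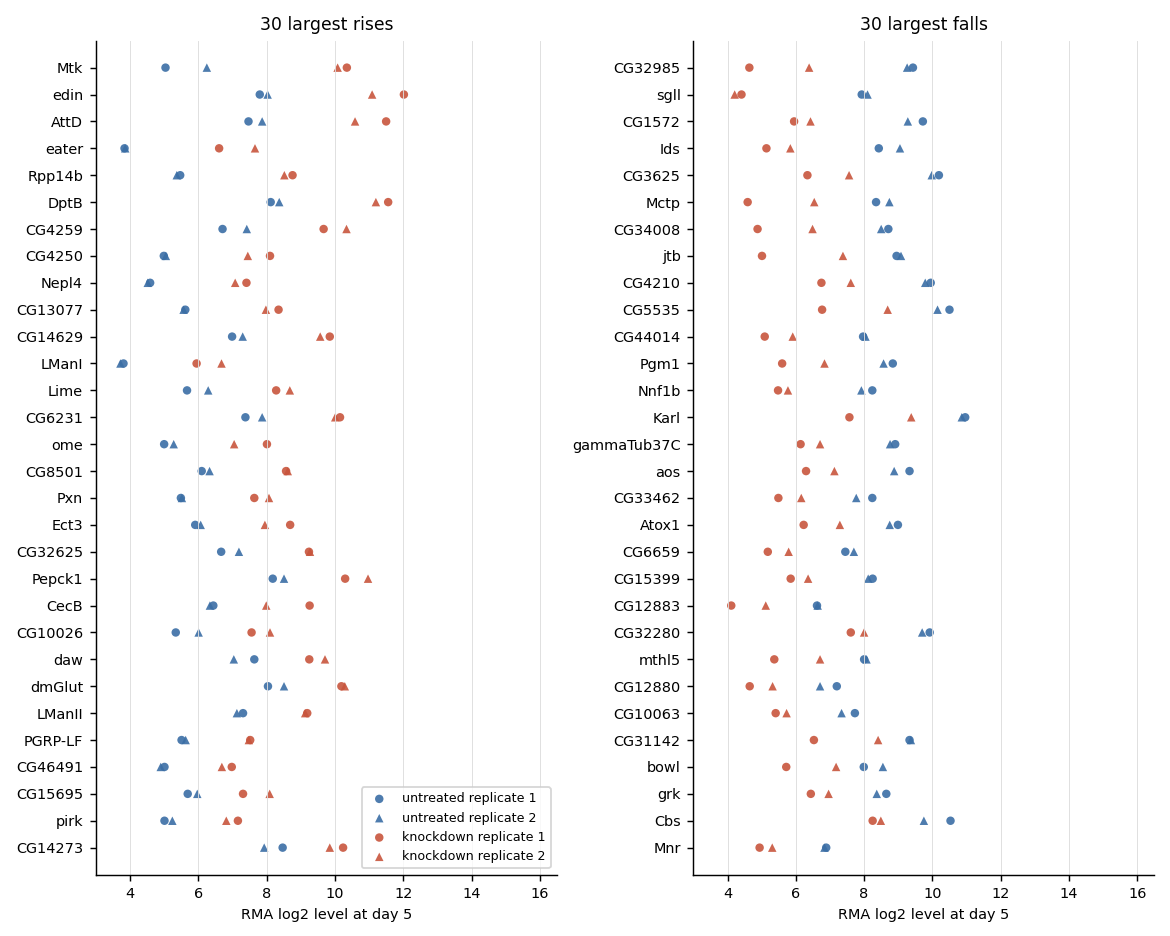
RMA log2 levels at day 5 in each of the 4 samples for the 30 genes with the largest rises (left) and the 30 with the largest falls (right) among those that passed. Blue marks untreated and red knockdown samples, circles replicate 1 and triangles replicate 2. Groups apart were a condition for choosing these 60 genes, so red and blue overlap for none. In most falls the red circle lies to the left of the red triangle, at a lower level.

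The phagocytic receptor gene eater and the matrix gene Pxn rose from low levels, while most of the measured phagocytic receptors and plasmatocyte markers did not pass. The phagocytic receptor gene eater was at 3.84 and 3.86 in the untreated samples and 6.61 and 7.66 in the knockdown samples, so that it went from a level at the lower quartile of the arrays to one well above the median, a change of 3.28 (9.72-fold, SE 0.42, adjusted p = 0.00018). Pxn, which encodes the matrix enzyme peroxidasin made by plasmatocytes, was at 5.49 and 5.52 in the untreated samples and 7.64 and 8.07 in the knockdown samples and rose by 2.35 (5.11-fold, SE 0.29, adjusted p = 0.00015); another probe set of Pxn, at a mean of 3.37, was at -0.02. Of 22 phagocytic receptor genes 3 rose and 0 fell (median 0.09, with 9 changes below 0; 5 higher and 0 lower with the replicate block): eater, the engulfment receptor drpr (1.21) and the thioester protein Tep4 (1.13). Of 18 plasmatocyte markers 5 rose and 0 fell (median 0.34; 7 higher and 0 lower with the replicate block), namely eater, Pxn, drpr, the integrin ligand Tig (0.94) and mspo (0.45). Hemolectin, Hml, was at 0.93 (adjusted p = 0.31; 0.0076 with the replicate block), and NimC1 at 0.40 (adjusted p = 0.21). The calls of drpr (1.06), Tig (0.85) and mspo (0.39) were lost without untreated replicate 1 (adjusted p from 0.18 to 0.29). With untreated replicate 2 left out, drpr (1.35), Tig (1.02) and mspo (0.50) no longer passed (adjusted p from 0.068 to 0.13). Removing knockdown replicate 1 ended the calls of drpr (1.34), Tig (0.99) and mspo (0.49) (adjusted p from 0.078 to 0.14). When knockdown replicate 2 was dropped, drpr (1.07), Tig (0.89) and mspo (0.41) did not pass (adjusted p from 0.075 to 0.14).

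Among 35 genes of the extracellular matrix and integrins, 7 rose and 0 fell (median 0.14; 11 higher and 2 lower with the replicate block). Beside Pxn and Tig, which also stand among the plasmatocyte markers, they were a laminin chain, LanB1, the collagen lysyl hydroxylase Plod, the integrin alpha chain if, the collagen-binding SPARC and the perlecan trol. LanB1 was at 10.39 and 10.57 in the untreated samples and 11.49 and 11.61 in the knockdown samples. SPARC was at 12.53 and 12.43 in the untreated samples and 13.53 and 13.33 in the knockdown samples. Both are narrow shifts with no overlap, of 1.07 and 0.95. The rises of Plod (1.04), if (1.12) and trol (1.58) were of the same order at the brightest probe set of each (the 7 others of trol lay between -0.08 and 1.44), with adjusted p from 0.0016 to 0.011 over the 5. The basement membrane collagens Col4a1 and vkg were at 0.41 and 0.14 (adjusted p = 0.39 and 0.83). The call of trol (1.51) was lost without untreated replicate 1 (adjusted p = 0.1). With untreated replicate 2 left out, trol (1.64) no longer passed (adjusted p = 0.066). Removing knockdown replicate 1 ended the calls of SPARC (0.85) and trol (1.24) (adjusted p from 0.051 to 0.18).

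Outside immunity, the largest rise was in Rpp14b, a protein subunit of ribonuclease P, the enzyme that trims precursor tRNAs. It was at 5.47 and 5.37 in the untreated samples and 8.76 and 8.52 in the knockdown samples, a rise of 3.22 (9.33-fold, SE 0.17, adjusted p = 2.4e-08). The other 11 genes of tRNA processing measured lay between -0.47 and 0.10 at day 5, and 0 of them passed here (1 higher and 2 lower with the replicate block, Rpp14b included). Nepl4, a neprilysin-like peptidase gene, was at 4.59 and 4.52 in the untreated samples and 7.41 and 7.08 in the knockdown samples, and was the only one of 37 neprilysins and peptidases to pass (2.69, 6.43-fold, SE 0.18, adjusted p = 2.8e-07), where the block gave 2 higher and 4 lower. Across all named genes 3.7% passed in either direction. The neighbouring lysosomal alpha-mannosidase genes LManI and LManII rose by 2.55 and 1.94, the first from the floor of the array (3.81 and 3.72 in the untreated samples and 5.95 and 6.68 in the knockdown samples) and the second from 7.22 ± 0.13 to 9.16 ± 0.04 (SD, n = 2 each). Their sequences are related, so probes may share signal. The beta-galactosidase gene Ect3 rose by 2.33, the cathepsin gene CtsL1 by 0.57 and the sulfamidase gene Sgsh by 0.73. In all 36 genes of the lysosome and glycosidases 4 rose and 1 fell (median 0.11; 12 higher and 2 lower with the replicate block). Lime, a zinc finger factor that links immunity with metabolism in blood cells, was at 5.67 and 6.29 in the untreated samples and 8.28 and 8.68 in the knockdown samples. Untreated samples of other days reached 8.38 for Lime, above the lower of its knockdown values. The activin-like ligand daw rose by 2.14, the glutamate transporter dmGlut by 1.97, and the sestrin gene Sesn by 1.53, with adjusted p from 0.00025 to 0.0045 over these and Lime. Sesn was the 1 of 27 autophagy genes to pass (4 higher and 1 lower with the replicate block). When untreated replicate 1 was dropped, CtsL1 (0.40), Sgsh (0.91) and Sesn (1.20) did not pass (adjusted p from 0.063 to 0.14). The call of Sgsh (0.55) was lost without untreated replicate 2 (adjusted p = 0.39). With knockdown replicate 1 left out, Sgsh (0.53) no longer passed (adjusted p = 0.43). Removing knockdown replicate 2 ended the call of CtsL1 (0.46) (adjusted p = 0.056).

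The other rises among the 30 largest were in genes with little or no named function, from 1.85 to 2.94. CG4259, a gene of the serine protease family, was at 6.71 and 7.42 in the untreated samples and 9.67 and 10.34 in the knockdown samples. Untreated samples of other days reached 9.45 for CG4259. CG4250 was at 4.99 and 5.05 in the untreated samples and 8.10 and 7.45 in the knockdown samples, and CG6231 at 7.38 and 7.87 in the untreated samples and 10.15 and 10.01 in the knockdown samples. The 2 knockdown samples of CG6231 lay closer together than its untreated samples, and those of CG4250 farther apart. The probe set of ome, a dipeptidyl peptidase gene, rose by 2.39, whereas its other probe sets, at mean levels up to 4.11, lay between -0.06 and 0.08. CG46491 rose from 4.96 ± 0.08 to 6.83 ± 0.21 (SD, n = 2 each), and CG8501 from 6.22 ± 0.17 to 8.59 ± 0.03. When untreated replicate 1 was dropped, CG10026 (1.82) did not pass (adjusted p = 0.05).

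Among enzymes of nitrogen metabolism the genes of arginase, ornithine aminotransferase, a glutamine synthetase and glutamate dehydrogenase rose. In the list of glutamine, glutamate and proline enzymes, 22 were measured, 4 rose and 1 fell (median 0.17; 8 higher and 3 lower with the replicate block). Arginase, arg, was at 8.09 and 8.07 in the untreated samples and 9.91 and 9.78 in the knockdown samples. Oat, ornithine aminotransferase, which takes the product of arginase towards proline and glutamate, was at 8.36 and 8.11 in the untreated samples and 10.02 and 9.72 in the knockdown samples. Gs1, a glutamine synthetase, was at 9.85 and 10.18 in the untreated samples and 11.53 and 11.52 in the knockdown samples. In each of these genes the groups were well apart, and the rises were 1.76, 1.63 and 1.51. Glutamate dehydrogenase, Gdh, rose by 0.59 from a mean of 11.26. The one fall was at the brightest probe set of the CTP synthase gene Ctps, which uses glutamine to make a nucleotide and was at 9.42 and 9.51 in the untreated samples and 7.49 and 8.03 in the knockdown samples. The 2 other probe sets of Ctps, the brighter of them at a mean of 8.69 against 8.91, did not pass and were at 0.01 and 0.09, so the probe sets of this gene disagree. Over these 5 genes the tests gave adjusted p from 1.6e-05 to 0.0056. The calls of Gs1 (1.34) and Gdh (0.59) were lost without untreated replicate 1 (adjusted p from 0.051 to 0.08). With untreated replicate 2 left out, Gdh (0.59) no longer passed (adjusted p = 0.053). Removing knockdown replicate 1 ended the call of Gdh (0.48) (adjusted p = 0.1).

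Of 28 amino acid transporter genes 1 rose and 1 fell, where 3.7% of all named genes passed in either direction (2 higher and 2 lower with the replicate block). CG5535, a cationic amino acid transporter, was at 10.50 and 10.15 in the untreated samples and 6.77 and 8.69 in the knockdown samples, a fall of 2.60 (6.07-fold, SE 0.39, adjusted p = 0.00074). The SD of the knockdown samples was 1.36, against 0.24 in untreated cells (n = 2 each), and without knockdown replicate 1 the change was -1.64. CG13384 rose by 0.75 (adjusted p = 0.0035). Cystathionine beta-synthase, Cbs, which uses the active form of vitamin B6, was at 10.53 and 9.75 in the untreated samples and 8.25 and 8.49 in the knockdown samples and fell by 1.77 (3.41-fold, SE 0.24, adjusted p = 0.00036). In serine synthesis the phosphoserine phosphatase gene aay rose by 0.62 and the aminotransferase gene CG11899 fell by 1.44. These 3 were the only ones of 23 genes of the ATF4 and one-carbon list to pass (6 higher and 5 lower with the replicate block; median 0.04). Of 22 aminoacyl-tRNA synthetase genes 0 rose and 1 fell, the accessory subunit AIMP1 (-0.53), and 6 were called lower with the replicate block. In this list 21 of the 22 changes were below 0, with a median of -0.18 (-0.09 after cyclic loess scaling). The median untreated level of the list was 10.30, and over all probe sets with a mean above 8 the median change was -0.08. When untreated replicate 1 was dropped, CG11899 (-1.44) and aay (0.55) did not pass (adjusted p from 0.12 to 0.21). The calls of CG11899 (-1.43) and AIMP1 (-0.39) were lost without untreated replicate 2 (adjusted p from 0.22 to 0.33). With knockdown replicate 1 left out, CG11899 (-0.71) and AIMP1 (-0.40) no longer passed (adjusted p from 0.34 to 0.55). Removing knockdown replicate 2 ended the call of aay (0.54) (adjusted p = 0.061).

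In sugar metabolism 3 of 28 genes rose and 1 fell, and the replicate block gave 4 higher and 7 lower. The median was -0.20 (-0.11 after cyclic loess scaling). The 2 genes of phosphoenolpyruvate carboxykinase, the entry enzyme of gluconeogenesis, both rose, Pepck1 by 2.29 and Pepck2 by 0.93. Pepck1 was at 8.18 and 8.51 in the untreated samples and 10.30 and 10.97 in the knockdown samples. Untreated samples of other days reached 10.12 for Pepck1. Gpdh1, glycerol-3-phosphate dehydrogenase, was at 8.45 and 8.73 in the untreated samples and 9.72 and 9.91 in the knockdown samples and rose by 1.22 (2.34-fold, SE 0.11, adjusted p = 5e-06). Pgm1, phosphoglucomutase, was at 8.84 and 8.57 in the untreated samples and 5.60 and 6.84 in the knockdown samples and fell by 2.48 (5.59-fold, SE 0.45, adjusted p = 0.0039). The 7 genes called lower with the replicate block included the glycolytic genes Gapdh1 (-0.69) and Tpi (-0.46), the gluconeogenic gene fbp (-1.42), which encodes fructose bisphosphatase, and the trehalase gene Treh (-0.88), none of which passed without it. Of 63 genes in the lipid list the diacylglycerol acyltransferase mdy (0.72) rose and 1 fell, while the block gave 13 higher and 3 lower. That fall was the sulfatase Ids, not itself a gene of lipid metabolism, which is also the 1 fall of the lysosome list. Across all named genes 3.7% passed in either direction. When untreated replicate 1 was dropped, Pepck1 (2.12), Pepck2 (0.64), Pgm1 (-2.35) and mdy (0.63) did not pass (adjusted p from 0.054 to 0.33). The call of Pepck1 (2.45) was lost without untreated replicate 2 (adjusted p = 0.072). With knockdown replicate 1 left out, Pgm1 (-1.86) no longer passed (adjusted p = 0.095). Removing knockdown replicate 2 ended the calls of Pepck1 (1.95) and Pepck2 (0.66) (adjusted p from 0.085 to 0.16).

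The glutathione S-transferase and cytochrome P450 genes that passed rose. Over all named genes 1.59% rose and 2.11% fell, and with the replicate block 6.13% and 9.51%. Of 35 glutathione S-transferase genes 3 rose and 0 fell (median 0.17; 10 higher and 0 lower with the replicate block), GstD4 (0.90), GstD7 (0.74) and GstD5 (0.70), 3 close paralogs whose probe sets may share signal. Of 77 cytochrome P450 genes 4 rose and 0 fell (median 0.12; 15 higher and 0 lower with the replicate block): Cyp6a8, at 6.64 and 6.88 in the untreated samples and 8.31 and 8.33 in the knockdown samples, and Cyp6a14 (0.99), Cyp12e1 (0.85) and Cyp4e2 (0.85). The tests gave adjusted p from 0.0012 to 0.039 over these 4 and the 3 GstD genes. In redox defence 2 of 27 rose and 1 fell (7 higher and 1 lower with the replicate block). Catalase, Cat, which removes hydrogen peroxide, was at 8.96 and 8.99 in the untreated samples and 10.51 and 10.14 in the knockdown samples, a rise of 1.35 (2.54-fold, SE 0.21, adjusted p = 0.0012). The methionine sulfoxide reductase gene MsrA rose by 1.04, and Gclm, the modifier subunit of the enzyme that starts glutathione synthesis, fell by 0.39. Of 23 genes of metals and iron, 3 rose and 0 fell (5 higher and 2 lower with the replicate block): the copper importer Ctr1A (0.67), the mitochondrial iron importer mfrn (0.66) and the transferrin Tsf3 (0.51). Genes of metal handling outside that list, named after their values were seen, went both ways: the copper chaperone gene Atox1 fell by 2.11, the zinc transporter gene Zip102B by 1.31 (adjusted p = 0.0045), and the zinc transporter gene Zip71B rose by 1.81 (adjusted p = 0.0004). When untreated replicate 1 was dropped, GstD5 (0.63), MsrA (1.17), Gclm (-0.35), Ctr1A (0.57) and Tsf3 (0.59) did not pass (adjusted p from 0.078 to 0.23). The calls of GstD4 (0.75), GstD7 (0.52), GstD5 (0.78), Cyp12e1 (0.83), Cyp4e2 (0.58), MsrA (0.92), Gclm (-0.43), mfrn (0.51) and Tsf3 (0.44) were lost without untreated replicate 2 (adjusted p from 0.05 to 0.4). With knockdown replicate 1 left out, GstD5 (0.69), Cyp4e2 (0.72), MsrA (0.87), mfrn (0.56), Tsf3 (0.48) and Zip102B (-1.05) no longer passed (adjusted p from 0.097 to 0.32). Removing knockdown replicate 2 ended the calls of GstD5 (0.72), Gclm (-0.30) and Tsf3 (0.54) (adjusted p from 0.059 to 0.14).

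The largest falls began from high levels. CG32985 was at 9.43 and 9.26 in the untreated samples and 4.64 and 6.39 in the knockdown samples, a fall of 3.83 (14.2-fold, SE 0.37, adjusted p = 1.6e-05). For sgll, whose product pyridoxine phosphate oxidase makes the active form of vitamin B6, the levels were 7.93 and 8.10 in the untreated samples and 4.41 and 4.21 in the knockdown samples. Unlike CG32985, sgll fell almost equally in both replicates, to a level below the array medians (3.71; 13.1-fold, SE 0.25, adjusted p = 3.6e-07). It was the 1 of 9 genes of vitamin B6 metabolism to pass (median 0.00; 0 higher and 2 lower with the replicate block). CG1572 was at 9.72 and 9.28 in the untreated samples and 5.95 and 6.43 in the knockdown samples, and fell with an adjusted p among the smallest of all falls (5e-08). CG44014 fell by 2.51 at the probe set with the smallest p and was lower at its others too, with changes of -2.06 to -1.18.

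Of the 30 largest falls, 29 were larger in knockdown replicate 1. The gene jtb was at 8.95 and 9.08 in the untreated samples and 5.01 and 7.38 in the knockdown samples, and without that sample its change was -1.63. Karl, a lipocalin, was at 10.96 and 10.86 in the untreated samples and 7.57 and 9.38 in the knockdown samples, with -1.53 without it. A second probe set of Karl was at -2.61, and Karl was the 1 of 18 lipocalin and odorant binding genes to pass (1 higher and 1 lower with the replicate block). The receptor gene mthl5, of the methuselah family, fell from 8.04 ± 0.05 to 6.04 ± 0.95 (SD, n = 2 each), with a change of -1.33 without replicate 1. CG31142 went from -1.88 to -0.93 and the transcription factor gene bowl from -1.82 to -1.08. The sulfatase gene Ids was at 8.43 and 9.05 in the untreated samples and 5.14 and 5.84 in the knockdown samples, a fall of 3.25 with an SE of 0.68. The changes of Ids were nearly equal, -3.29 in replicate 1 and -3.22 in replicate 2. Nnf1b, a kinetochore protein gene, was at 8.24 and 7.92 in the untreated samples and 5.48 and 5.77 in the knockdown samples (5.49-fold lower, SE 0.15, adjusted p = 1.4e-07). Its changes were -2.76 in replicate 1 and -2.15 in replicate 2. The copper chaperone gene Atox1 fell by 2.11, the C2-domain gene Mctp by 2.98 and the serine protease family gene CG33462 by 2.18. Other probe sets of Mctp and Mnr, both dimmer than the ones that fell, were at 0.03 and 0.02. The remaining falls among the 30 largest lay between -1.74 and -3.14. When untreated replicate 1 was dropped, Ids (-3.56) and CG12880 (-1.72) did not pass (adjusted p from 0.053 to 0.066). The calls of Ids (-2.94) and bowl (-1.54) were lost without untreated replicate 2 (adjusted p from 0.11 to 0.14). With knockdown replicate 1 left out, Ids (-2.90), CG12880 (-1.63) and bowl (-1.08) no longer passed (adjusted p from 0.073 to 0.15).

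Genes of the germline and of small RNA pathways fell where they passed. Of 38 ovarian and germline genes 0 rose and 7 fell (median -0.04, with 2 higher and 13 lower with the replicate block), against 1.59% and 2.11% of all named genes. The female germline gamma-tubulin gene gammaTub37C was at 8.91 and 8.76 in the untreated samples and 6.14 and 6.71 in the knockdown samples. The helicase gene armi, of the pathway of Piwi-interacting RNAs, was at 9.50 and 9.44 in the untreated samples and 7.92 and 8.54 in the knockdown samples. Both fell further in replicate 1, by 2.41 and 1.24 over both pairs. The mRNA localization gene exu fell by 1.34, and the Piwi pathway genes Hen1, squ, aub and papi by 1.20, 1.17, 1.18 and 0.74. In the small RNA list, which shares armi, Hen1 and aub, 0 of 17 rose and 4 fell (median -0.30; 0 higher and 8 lower with the replicate block), the other being the antiviral gene pst (by 1.63). The tests of these 8 genes gave adjusted p from 2e-05 to 0.026. Removing untreated replicate 1 ended the calls of exu (-1.14), aub (-0.92), papi (-0.66) and pst (-1.43) (adjusted p from 0.057 to 0.21). When untreated replicate 2 was dropped, Hen1 (-1.02), squ (-1.09), papi (-0.82) and pst (-1.83) did not pass (adjusted p from 0.057 to 0.088). The calls of Hen1 (-0.81), squ (-0.96), papi (-0.44) and pst (-1.79) were lost without knockdown replicate 1 (adjusted p from 0.066 to 0.39). With knockdown replicate 2 left out, aub (-0.98) and pst (-1.46) no longer passed (adjusted p from 0.062 to 0.081).

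Of 62 genes of the cell cycle and DNA replication 1 rose and 7 fell (median -0.21, with 3 higher and 23 lower with the replicate block), against 1.59% and 2.11% of all named genes. The largest falls that passed were in Orc4 (-0.85), of the origin recognition complex, and borr (-0.52), the mitotic protein Borealin. The sliding clamp PCNA (-0.50), the origin recognition subunit Orc2 (-0.43), the polymerase alpha subunit PolA2 (-0.42), the helicase subunit Mcm2 (-0.36) and the clamp loader Gnf1 (-0.32) fell by less than 2-fold. PCNA was at 11.42 and 11.49 in the untreated samples and 10.89 and 11.02 in the knockdown samples, a narrow but separate pair of groups. The rise was in the DNA damage kinase gene tefu (0.83). In all, 53 of the 62 changes were below 0, and both knockdown values lay below both untreated values in 39 of them. Over all probe sets 17.5% were lower with groups apart, and those with a mean above 8 had a median change of -0.08. The list had a median untreated level of 9.08, and the shares among genes of like level were not computed. After cyclic loess scaling the median of the 62 genes was -0.13. Removing untreated replicate 1 ended the calls of tefu (0.75), Orc4 (-0.86), borr (-0.51), PCNA (-0.54), Orc2 (-0.43), PolA2 (-0.44), Mcm2 (-0.33) and Gnf1 (-0.33) (adjusted p from 0.078 to 0.23). When untreated replicate 2 was dropped, Orc4 (-0.85), borr (-0.54), PCNA (-0.47), Orc2 (-0.43), PolA2 (-0.41), Mcm2 (-0.39) and Gnf1 (-0.31) did not pass (adjusted p from 0.082 to 0.22). The calls of Orc4 (-0.50), borr (-0.54), PCNA (-0.44), Orc2 (-0.38), PolA2 (-0.30), Mcm2 (-0.30) and Gnf1 (-0.27) were lost without knockdown replicate 1 (adjusted p from 0.18 to 0.36). With knockdown replicate 2 left out, borr (-0.51) no longer passed (adjusted p = 0.1).

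Ribosome biogenesis had 0 of 49 genes higher and 1 lower, the RNA helicase gene pths (-0.78), and 0 higher and 30 lower with the replicate block. Its median change was -0.29 (-0.22 after cyclic loess scaling), and 47 of 49 changes were below 0. The groups were apart and lower in 43 genes, an order found in 17.5% of all probe sets. The list had a median untreated level of 9.87, far above the array medians. The share among genes of like level was not computed. Fib, the nucleolar methyltransferase fibrillarin, was at -0.33 (adjusted p = 0.43; 0.014 with the block). In the proteasome 0 of 29 genes passed in limma, 8 were lower at an unadjusted p under 0.05, and the block called 10 lower. Over all 18769 probe sets 2372 were under 0.05 unadjusted in limma, in either direction. The median of the proteasome genes was -0.19 (-0.12 after cyclic loess scaling), with the catalytic subunit Prosbeta5 at -0.44 (adjusted p = 0.075). Among signalling genes 0 of 36 rose and 3 fell (0 higher and 10 lower with the replicate block), aos, kek1 and Dsor1. The gene aos, of a secreted inhibitor of the epidermal growth factor receptor, was at 9.33 and 8.88 in the untreated samples and 6.30 and 7.13 in the knockdown samples. Over all days the untreated samples spanned 6.42 to 9.33 for aos, so the knockdown value of 7.13 lay within their range. The membrane inhibitor kek1 had a change of -1.16 and Dsor1, the kinase that activates the MAP kinase, one of -0.71. The gene grk, a ligand made in the oocyte and not a member of that list, was among the 30 largest falls, at 8.65 and 8.37 in the untreated samples and 6.44 and 6.96 in the knockdown samples. The histone deacetylase gene HDAC1 fell by 0.71 (adjusted p = 0.0024), as 1 of 25 chromatin genes (0 higher and 3 lower with the replicate block). Removing untreated replicate 1 ended the calls of aos (-2.16), kek1 (-1.37) and pths (-0.82) (adjusted p from 0.066 to 0.15). When untreated replicate 2 was dropped, aos (-2.62), kek1 (-0.95), Dsor1 (-0.70) and pths (-0.74) did not pass (adjusted p from 0.058 to 0.28). The calls of aos (-1.97), kek1 (-0.77), Dsor1 (-0.63) and pths (-0.68) were lost without knockdown replicate 1 (adjusted p from 0.087 to 0.4).

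Genes of cell death moved in both directions, with 2 of 19 higher and 2 lower (median -0.03; 3 higher and 4 lower with the replicate block). The initiator caspase gene Dronc was at 8.01 and 8.04 in the untreated samples and 8.53 and 8.59 in the knockdown samples and egr rose as given above, while Debcl, of the Bcl-2 family, fell by 1.16 (2.24-fold, SE 0.16, adjusted p = 0.00036) together with jtb. In the melanin and pigment list 2 of 28 rose and 0 fell (3 higher and 0 lower with the replicate block), yellow-f, an enzyme of melanin synthesis, at 9.15 and 8.74 in the untreated samples and 10.66 and 10.26 in the knockdown samples, and its neighbour and paralog yellow-f2 (0.59). Of 41 serine proteases and serpins 4 rose and 2 fell (7 higher and 2 lower with the replicate block), CG4259 and the serpins Spn42Da (0.63), Spn43Aa (0.41) and Spn88Eb (0.76) on the one side, CG33462 and Spn42De (-0.80) on the other. In the ecdysone list MsrA alone of 23 passed (3 higher and 1 lower with the replicate block), and in the list of actin, septin and adhesion genes spir (0.52), which nucleates actin filaments and whose 2 other probe sets were at 0.11 and 0.83, alone of 38 (2 higher and 5 lower with the replicate block). With untreated replicate 1 left out, Spn43Aa (0.45), Spn42De (-0.66) and spir (0.57) no longer passed (adjusted p from 0.059 to 0.31). Removing untreated replicate 2 ended the calls of yellow-f2 (0.43), Spn43Aa (0.37), Spn88Eb (0.57), Spn42De (-0.93) and spir (0.46) (adjusted p from 0.095 to 0.29). When knockdown replicate 1 was dropped, yellow-f2 (0.55), Spn43Aa (0.40), Spn88Eb (0.55), Spn42De (-0.79) and spir (0.62) did not pass (adjusted p from 0.061 to 0.31). The calls of Spn42De (-0.80) and spir (0.41) were lost without knockdown replicate 2 (adjusted p from 0.094 to 0.15).

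In 11 of the 45 lists 0 members passed in limma. Among them were the 9 measured genes of the selenium pathway, of which 0 were higher and 2 lower at an unadjusted p under 0.05, and 2 lower with the block. Of all 18769 probe sets, 2372 were under that unadjusted level in limma, in either direction. Sps2 was at 8.50 and 7.99 in the untreated samples and 8.31 and 8.29 in the knockdown samples, a change of 0.05 (SE 0.30, adjusted p = 0.98). The selenoprotein gene BthD was at 9.89 and 9.71 in the untreated samples and 9.40 and 9.30 in the knockdown samples (-0.45, adjusted p = 0.16; 0.0066 with the block), and SelG, another one, at 0.10 (adjusted p = 0.96). SelT was at 0.07, the selenocysteine elongation factor eEFSec at -0.43, Sbp2 at -0.14 and Secp43 at -0.30 (adjusted p = 0.14; 0.04 with the block). The thioredoxin reductase genes Trxr1 and Trxr2 were at -0.11 and -0.23. Heat shock and chaperone genes had 0 and 2 of 17 higher and lower at an unadjusted p under 0.05, with DnaJ-1 at -0.44 (adjusted p = 0.088). These counts were 0 and 4 of 28 for ER stress and secretion, 2 and 0 of 17 for the TCA cycle, 2 and 0 of 58 for oxidative phosphorylation, 0 and 0 of 31 for the vacuolar ATPase, 0 and 5 of 27 for mitochondrial dynamics and 0 and 0 of 10 for JAK-STAT. With the block 1 and 2 of the heat shock, 1 and 3 of the ER stress, 2 and 0 of the TCA cycle and 1 and 5 of the mitochondrial dynamics genes were called higher and lower. It called 1 and 1 of the oxidative phosphorylation genes, 1 and 0 of the vacuolar ATPase genes and 0 and 0 of the JAK-STAT genes. The oxidative phosphorylation genes, with a median untreated level of 11.72, lay between -0.35 and 0.41. Crystal cell and lamellocyte markers had 1 and 3 of 14, and markers of muscle, neuron and fat body 0 and 0 of 16, at an unadjusted p under 0.05; the block called 1 and 2 of the former and 0 and 0 of the latter.

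**Figure D4:**
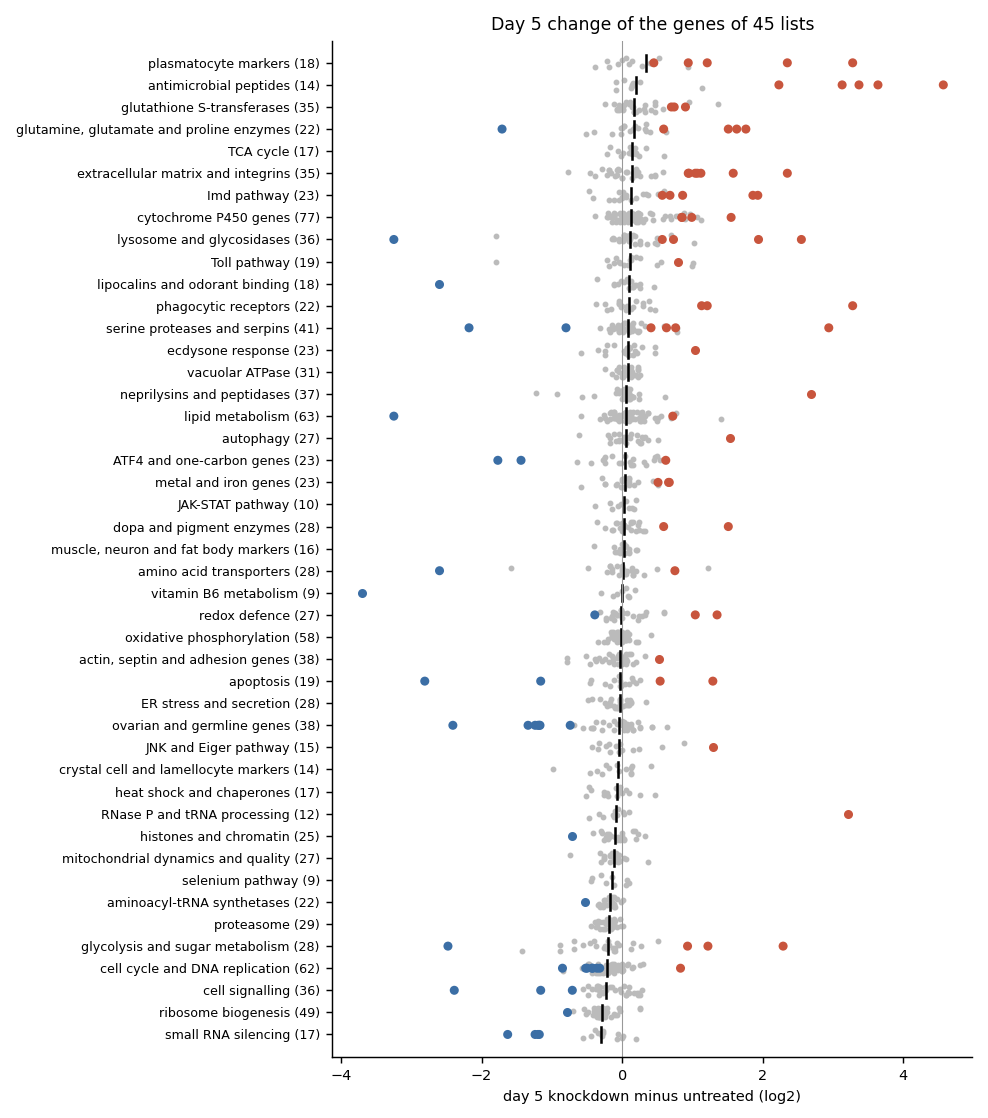
Day 5 change (knockdown minus untreated, log2) of every measured gene of 45 lists, each gene by its brightest probe set, with the number measured in brackets and lists ordered by their median (black bar). Red and blue points passed and grey points did not; a gene may stand in more than 1 list, and medians lie between -0.30 (small RNA silencing) and 0.34 (plasmatocyte markers).

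Day 5 was set against the earlier days, which have their own untreated samples (5 knockdown and 5 untreated at day 1, 2 of each at day 3 after technical arrays were averaged). The 30 largest falls were lower than untreated at day 3 as well, all 30 of them, with a median of -1.22 against -2.40 at day 5, and 12 passed on both days. The 30 largest rises had a median of 0.55 at day 3 against 2.38, and 2 passed at day 3, Rpp14b (2.11) and CG46491 (1.06). Day 1 changes of the 60 genes lay between -0.74 and 0.28. Over all that passed at day 5, 97.3% of the falls and 82.1% of the rises had the same sign at day 3, where 60.3% of all probe sets did. Of the 33 probe sets that passed at day 3 (0.176%), 28 passed at day 5 in the same direction. The falls that were already deep at day 3 included sgll (-2.77) and CG10063 (-1.76, then -1.96), and that of pst was -2.12 at day 3 and -1.63 at day 5.

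**Figure D5:**
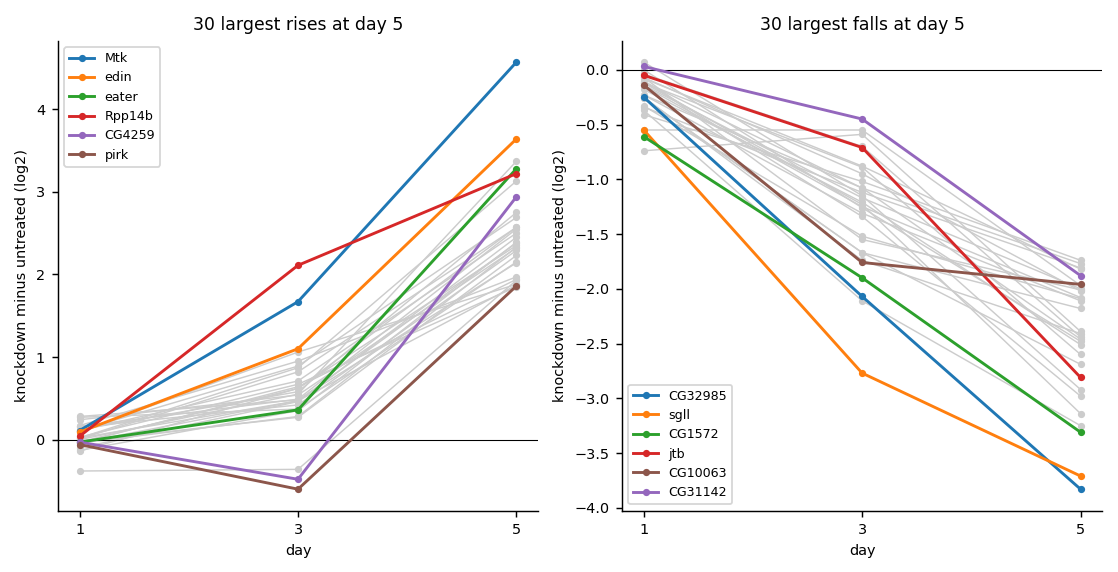
Knockdown minus untreated (log2) at days 1, 3 and 5 for the 30 genes with the largest rises (left) and falls (right) at day 5; points are differences of group means (5 against 5 samples at day 1, 2 against 2 at days 3 and 5), and 6 genes of each are coloured. All 30 falls lie below 0 at day 3, while CG4259, PGRP-LF and pirk among the rises lie below 0 there.

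The test of the difference itself, day 5 change minus day 3 change, passed for 18 probe sets (0.0959%), 17 of them more positive at day 5, and for 225 with the replicate block. The difference was 2.54 for edin (SE 0.41, adjusted p = 0.022), which was at 1.10 on day 3, and 2.46 for pirk (SE 0.41, adjusted p = 0.023), which was at -0.60. GstD5 was at -0.97 on day 3 and 0.70 on day 5, and CG14253 at -0.52 and 1.68. Mtk, AttD and DptB did not pass this test (adjusted p = 0.69, 0.068 and 0.11) but did with the replicate block (adjusted p = 0.0045, 0.0017 and 0.001). Among the falls only Nnf1b passed without the block, with -1.08 on day 3 and -2.46 on day 5. Without untreated replicate 1 of day 5, 0 passed (779 at an unadjusted p under 0.05), and without knockdown replicate 2 of day 5 there were 60, of which 25 were more positive and 35 more negative at day 5. With the block the split was 182 and 43. Against day 1, 263 probe sets passed (1.4%), 126 more positive and 137 more negative at day 5, and 1280 with the block.

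Some genes that passed lie next to each other in the fly genome (RefSeq genes of assembly Release 6 plus ISO1 MT). Of 443 such genes placed on it, 20 adjacent pairs both passed, 16 of them in the same direction, 5 up and 11 down. Of 383 measured pairs whose first gene passed the next gene passed in 5.22%, where 3.76% of the 11796 measured and placed genes passed, and the difference was not tested. The pairs that rose were LManI with LManII, yellow-f with yellow-f2, GstD4 with GstD5, and CG11400 and Gbp1 with Gbp2, where Gbp1 and Gbp2 encode growth-blocking peptides, cytokines of the fly. The pair AttD (3.37) and CG14325 (-0.64) went opposite ways; the call of CG14325 held only where knockdown replicate 2 was the sample left out (-0.89, with -0.75, -0.54 and -0.40 and adjusted p from 0.091 to 0.46 otherwise). Of the probe sets that passed, 39 had no gene name and 19 had several. The 2 unnamed ones that rose most were at 6.76 and 6.79 in the untreated samples and 10.78 and 9.86 in the knockdown samples, and at 6.90 and 7.21 in the untreated samples and 10.50 and 9.86 in the knockdown samples. The 2 that fell most were at 11.47 and 11.56 in the untreated samples and 8.41 and 8.95 in the knockdown samples, and at 7.28 and 7.55 in the untreated samples and 4.66 and 5.75 in the knockdown samples. The first of these was lower than untreated at day 1 already, by 1.96 (adjusted p = 0.33), and by 3.10 at day 3 (adjusted p = 0.019), and is a probe set with no gene name here. At day 5 it no longer passed without knockdown replicate 1 (-2.56, adjusted p = 0.067). Of 46 genes that passed and have several probe sets, 36 had all of them changed in the same direction and 8 had all of them past the threshold.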

How the data were processed

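The deposited table holds log2 expression values that the authors made with RMA, per the submitters' processing notes; a version is not stated there. Levels come from 20 Affymetrix Drosophila Genome 2.0 arrays. Array medians lay between 4.53 and 4.69, so the values were used as deposited. Arrays carry no read depth, and their number limits the precision.

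Control probe sets (183 of 18952) were left out. Each of the 2 technical arrays of day 3 was averaged with biological replicate 2 of its group, leaving 18 samples. A single linear model over the 6 groups was fitted with limma 3.58.1 in R 4.3.3, and variances were moderated by eBayes (residual df 12, prior df 4.26), so the test at day 5 borrows most of its spread from day 1. Benjamini-Hochberg adjustment ran over 18769 probe sets, and an adjusted p under 0.05 counted as passed. The code was tested on simulated data. Same-numbered samples deviated together from their group means (r = 0.69 to 0.84 in 5 pairs at day 1, 0.78 at day 3, 0.71 at day 5), with own number best in each. With 2 samples a group at days 3 and 5, deviations mirror each other, so each of those days gives only 1 comparison. The replicate number was taken to pair samples. This comes from the data, not the labels, and a fit with day and number as a block is given where it changes a count.

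Named genes are the 30 largest rises and falls that passed with groups apart, and members that passed in 45 gene lists, each list gene by its brightest probe set. The members and lists were chosen with earlier results of these data known, and 5 list entries of another function were removed after values were seen (pirk, which passed, left the apoptosis list and stayed in the Imd list). Alternatives covered scaling, filtering, samples and blocks. Gene names come from the platform annotation (13647 probe sets with 1 symbol, 402 with several, 4720 with none). Gene positions of RefSeq served only to find adjacent genes, and no sequence was used.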

Additional observations from a re-analysis of the deposited data

Results flagged for a closer look

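The day 5 change differed from the day 3 change by the interaction test in limma for 18 probe sets. Named with the difference (day 5 minus day 3, log2), they were edin (2.54), pirk (2.46), CG14253 (2.20), CG4250 (2.17), CG6231 (1.99), Nepl4 (1.80), CG6006 (1.67), GstD5 (1.67), CG32170 (1.61), CG9331 (1.53), Svil (1.18), CG13654 (1.11), CG14196 (1.01), Rsph1 (0.94) and Gpdh1 (0.93), all more positive at day 5, and Nnf1b (-1.38), more negative. The unnamed probe sets among them differed by 2.81 and 2.46. Against day 1 the same test passed for 263 probe sets. Control probe sets outside the tested table also differed at day 5. The 4 controls named r2 GAPDH were higher in the knockdown by 1.26, 0.78, 1.28 and 1.31, with no overlap between groups, while those named GAPDH, without r2, were at -0.49, -0.39 and -0.45, and the tested gene Gpdh1 was at 1.22. Outlying values of single genes within a group were not tested, since the day 5 groups hold 2 samples each.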

How the results depend on the processing

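The 523 probe sets of day 5 became 2293 with the replicate block, 81 from day 5 samples alone (56 higher, 25 lower) and 1620 from these with the block, a setting added after the data were seen; leaving out 1 day 5 sample gave 264 to 777. Day 5 minus day 3 went from 18 to 225 with the block, 75 with technical arrays averaged with replicate 1, 11 with array medians subtracted and 0 to 60 with 1 sample left out, and day 5 minus day 1 from 263 to 1280 with the block and 112 to 400 with 1 sample left out. Without 1 sample its group has a lone sample, assumed to vary like the other groups. The cause of these shifts was not tested. Array medians subtracted left 153 of 478 higher, and cyclic loess 280 of 541. The other settings (technical arrays left out, a mean above 5, a trend with robust moderation) kept day 5 counts between 476 and 700 with technical arrays averaged with replicate 1 included. In all 523 probe sets both knockdown values lay beyond both untreated values, so leaving out 1 day 5 sample could not change a direction. The block, day 5 alone, the technical arrays, the level filter and the trend leave the day 5 difference itself unchanged. A direction could therefore change only with array medians subtracted or cyclic loess. Of 131 genes named by their test, none changed direction under either (10 were under the filter on a mean above 5). Those past the threshold stayed past it in all 131 with the block, while 90 lost it from day 5 alone, 44 and 42 when untreated replicate 1 or 2 was left out, and 39 and 17 when knockdown replicate 1 or 2 was. Genes near the array floor have understated changes.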
